A study of Mus musculus with 6 samples.

Results

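Il22, the gene for interleukin-22 (IL-22), was followed through sorted gates, clusters, single cells and T cell clones of the mouse colon. It was taken by name from its own column, as 1 of 15473 genes counted. The CD4 T cells came from the colonic lamina propria of mice carrying the alleles Foxp3{delta}EGFPiCre/WT and R26lsl-tdTomato/wt. Foxp3 is an X-linked gene whose product is the defining transcription factor of regulatory T (Treg) cells. Here 1 of its alleles carries an EGFP and Cre insert, the other is wild type, and Cre switches on a tdTomato reporter. The tdTomato+GFP+ gate therefore takes cells that use the inserted allele. The name of that allele carries a delta, and Foxp3 protein was not measured, so cells of this gate are not called Treg cells here. The tdTomato-GFP- gate takes CD4 T cells with neither reporter, and Treg cells on the wild-type allele can be among them. Both gates share the genotype and the tissue, no treatment is named, and age was not given in the sources used here. A gate was run as 1 lane of the 10x droplet system with 3 hashed biological replicates, which are the n = 3 of every value here, so a gate cannot be told apart from its lane.

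IL-22 is a cytokine of the IL-10 family that T helper 17 (Th17) cells and group 3 innate lymphoid cells (ILC3) secrete in the gut. It acts on epithelial cells through a receptor made of IL-22RA1 and IL-10RB, and drives antimicrobial proteins, mucus and epithelial repair. Its transcription is known to be promoted by IL-23 and IL-1 signals, by STAT3, and by the aryl hydrocarbon receptor, which Ahr encodes.

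Il22 was detected in 1024 of 18874 cells assigned to a hashed replicate (5.43%), with 19137 unique molecular identifiers (UMIs, counts of captured transcripts) in all. Summed UMIs per replicate ran from 7424984 to 23289046 and median UMIs per cell from 3501.5 to 3905, hashtags left out. All 7 T cell identity genes looked for (Cd3e, Cd3d, Cd3g, Cd4, Trac, Trbc1 and Trbc2) were detected in both gates. The lanes shared 106 cell barcodes, whose 212 cells held 252 Il22 UMIs, and no such barcode had an Il22 UMI in both lanes. As a base level, Il22 was read in 2 clusters of the tdTomato-GFP- gate led by genes of other T cell states. Whether the UMIs there are free RNA was not tested. Cluster 9, with the naive-cell genes Ccr7 and Lef1 among its leading genes, had an Il22 UMI in 8 of 703 cells (1.14%, exact 95% interval 0.493 to 2.23, median 3552 UMIs). Cluster 15, led by the cytotoxic genes Gzma, Gzmk and Eomes, had one in 1 of 143 cells (0.699%, median 3336 UMIs). Such intervals cover counting error only.

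Mouse Il22 has a near-identical neighbour, Iltifb, so the coding sequences are shown to judge whether counts could be split between them. In GENCODE vM21 (GRCm38), Il22 lies at chr10:118204942-118210047 on the plus strand and Iltifb at chr10:118289629-118295038 on the minus strand, each with 5 exons and 540 coding bases. The coding sequences were 98.3% identical, with 9 differing bases. The first 120 coding bases differ at a single base, in capitals, which is G106A counted from the A of the start codon with the Il22 base first.
Il22: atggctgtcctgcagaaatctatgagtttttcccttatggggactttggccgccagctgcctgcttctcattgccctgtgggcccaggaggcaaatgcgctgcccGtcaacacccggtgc
Iltifb: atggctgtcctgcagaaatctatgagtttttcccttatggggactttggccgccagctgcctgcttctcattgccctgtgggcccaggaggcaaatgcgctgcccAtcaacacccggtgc
Iltifb received 290 UMIs, or 1.52 for every 100 of Il22, and 107 of its 201 positive cells were also Il22-positive. How far the reads can tell the genes apart was not tested, and neither Iltifb reads counted as Il22 nor reads dropped as ambiguous can be seen in the table. Levels are given as CPM, the UMIs of a gene scaled to a fixed total of UMIs of all genes in the same cells, without hashtags. In Th17-like cells, defined below, Iltifb was also lower in tdTomato+GFP+ cells, with 0.795, 0.641 and 1.31 against 13.4, 5.55 and 5.95 CPM. Its groups did not overlap (edgeR log2 fold change -3.45, SE 0.46, adjusted p = 0.000124). Few Iltifb UMIs lay behind these levels, 4, 8 and 7 in tdTomato+GFP+ and 36, 7 and 6 in tdTomato-GFP- replicates.

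Il22 was higher in tdTomato-GFP- cells over all assigned cells. Its level was 348.8, 342.0 and 311.4 CPM in replicates 1 to 3 of tdTomato-GFP-, against 48.2, 110.9 and 130.02 CPM in those of tdTomato+GFP+. The gates did not overlap, and the tdTomato+GFP+ replicates differed more among themselves (96.4 ± 42.8 CPM, SD, n = 3) than the tdTomato-GFP- replicates (334 ± 19.9 CPM, SD, n = 3). In edgeR's quasi-likelihood test the gate difference was a log2 fold change of -1.80 (SE 0.41, adjusted p = 0.0379), or 3.49-fold lower in tdTomato+GFP+, in a comparison in which 13.4% of 11933 genes were called lower. That call was lost when the replicate number was a block (-1.91, adjusted p = 0.115), and without each library in turn other than replicate 1 of tdTomato+GFP+ (-2.07 to -1.78, adjusted p 0.0609 to 0.112). Without that replicate it was -1.49 (adjusted p = 2.68e-05).

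The share of Il22-positive cells, those with at least 1 Il22 UMI, followed the level. It was 8.35%, 6.94% and 8.44% in tdTomato-GFP- and 2.46%, 2.28% and 3.07% in tdTomato+GFP+ replicates, with no overlap. After thinning every cell to 2000 UMIs the means were 6.37% ± 0.72 and 2.03% ± 0.30 (SD, n = 3). An exact two-sided permutation test gave p = 0.1, the smallest that 3 against 3 replicates taken as unpaired allow, and 0.126 after adjustment over 39 such tests.

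Of the 2 classes of clustered cells compared, Th17-like cells and all others, the larger Il22 difference was in Th17-like cells. These are clusters 1, 2, 3, 12 and 13, in each of which 6 or 7 of 10 Th17 markers were raised and Il17a, Il17f and Ccl20 were among the 10 leading genes. Il22 is no marker in that list. Clusters 2 and 3 held most of the 1123 tdTomato-GFP- cells of this class, and clusters 1 and 2 most of the 5665 tdTomato+GFP+ cells. The Il22 level was 797, 466 and 851 CPM in tdTomato-GFP- replicates, against 32.8, 72.8 and 79.4 CPM in those of tdTomato+GFP+. The lowest tdTomato-GFP- replicate lay far above the highest tdTomato+GFP+ replicate. The difference was 11.6-fold (log2 fold change -3.53, SE 0.46, adjusted p = 0.0167), where 6.45% of 10075 genes were called lower. With the replicate number as a block the estimate was the same and missed the threshold (-3.53, adjusted p = 0.085). It also missed without replicate 1 or 3 of tdTomato-GFP- (adjusted p = 0.0808 and 0.0578) and without replicate 2 or 3 of tdTomato+GFP+ (0.0774 and 0.0538).

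**Figure D1:**
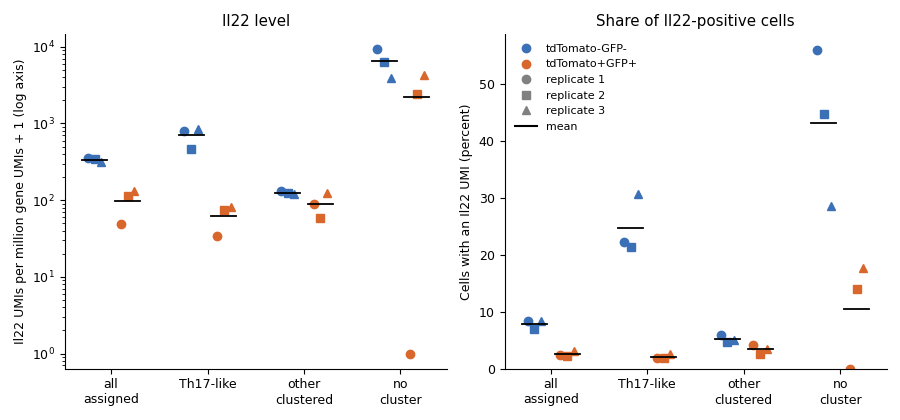
Il22 level (left, CPM plus 1, log axis) and share of cells with an Il22 UMI (right, percent) in 4 sets of cells; each symbol is a hashed replicate, colours are gates and bars are means of 3 replicates. In Th17-like cells the tdTomato-GFP- shares lie between 21.4% and 30.6% and the tdTomato+GFP+ shares between 1.88% and 2.56%.

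Among Th17-like cells 22.2%, 21.4% and 30.6% of tdTomato-GFP- cells were Il22-positive (266 cells in all), against 1.88%, 1.94% and 2.56% of tdTomato+GFP+ cells (118 cells in all). The groups did not overlap in this share, nor after thinning to 2000 UMIs (19.9% ± 3.55 against 1.64% ± 0.35, SD, n = 3) or with 1 cell per clonotype (20.7% ± 4.27 against 3.32% ± 1.64, SD, n = 3). The exact permutation p was 0.1 for each (adjusted 0.126). The tdTomato+GFP+ share was little above the 1.14% of cluster 9 in the other lane (its own cluster 9 had an Il22 UMI in 0 of 53 cells). Of its 118 positive cells 44 held 10 or more Il22 UMIs, as did 101 of the 266 tdTomato-GFP- positive cells. Those 44 cells carried 88.5% of the 1496 Il22 UMIs of the tdTomato+GFP+ Th17-like cells. In cluster 9 of the tdTomato-GFP- gate the highest count in a cell was 8 UMIs. The mean of the median UMIs per positive Th17-like cell was 5.67 ± 1.53 in tdTomato-GFP- and 3.83 ± 2.25 in tdTomato+GFP+ replicates (SD, n = 3), so the difference in level lay in the number of positive cells more than in the count per positive cell.

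Il22 outside the Th17-like clusters differed less between the gates. In the other clustered cells it was at 130.4, 123.1 and 120.6 CPM in tdTomato-GFP- replicates, against 88.4, 57.0 and 123.0 CPM in those of tdTomato+GFP+, with overlap at the third tdTomato+GFP+ replicate. The log2 fold change was -0.49 (SE 0.28, adjusted p = 0.354), where 5.52% of 11150 genes were called lower, and without that replicate it was -0.85 (adjusted p = 0.0247). The positive share was 5.21% ± 0.60 against 3.44% ± 0.85 (SD, n = 3). Its groups lay apart (exact permutation p = 0.1, adjusted 0.126) but overlapped after thinning to 2000 UMIs (exact permutation p = 0.2, adjusted 0.236). The gate effect in Th17-like cells exceeded that in the other clusters by -2.93 on the log2 scale (SE 0.52, unadjusted p = 0.00418), with an adjusted p = 0.0537 in an edgeR interaction test in which 7.48% of 11135 genes passed. The interaction therefore did not pass the threshold of 0.05.

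Within single clusters Il22 was lower in tdTomato+GFP+ cells in clusters 1, 3 and 4. In cluster 1 it was at 1064, 970 and 1464 CPM in tdTomato-GFP- replicates, against 43.0, 70.5 and 59.5 CPM in those of tdTomato+GFP+. The 20.3-fold difference (log2 fold change -4.35, SE 0.25, adjusted p = 0.000655) kept its call without each library in turn, where 3.88% of 8223 genes were lower. Cluster 4, which took no class name and is led by genes such as Ccl5, Csf2 and Gzma, had 203.7, 147.0 and 216.8 against 89.4, 94.5 and 85.8 CPM. This 2.06-fold difference (log2 fold change -1.05, SE 0.15, adjusted p = 0.000695) also kept its call without each library, where 0.921% of 7604 genes were lower. No replicate of one gate overlapped the other in either cluster.

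In cluster 3 the values were 335, 246 and 662 against 19.9, 47.4 and 28.1 CPM (log2 fold change -3.55, SE 0.54, adjusted p = 0.0459), where 3.33% of 8036 genes were lower. The block on replicate number took that call away (-3.54, adjusted p = 0.167), as did leaving out a library other than replicate 3 of tdTomato-GFP- (adjusted p 0.0917 to 0.178; -3.15 and 0.0238 without that replicate). Cluster 2 had 917, 329 and 615 against 31.2, 71.0 and 123.9 CPM and did not pass (log2 fold change -3.05, SE 0.62, adjusted p = 0.0996; 2.75% of genes were lower), although its replicates did not overlap either. In the cycling cluster 10, led by Stmn1, Top2a and Birc5, the values were 275, 298 and 266 against 54.7, 146.6 and 158.1 CPM (log2 fold change -1.18, adjusted p = 0.230; 2.08% of genes were lower). It passed only without replicate 1 of tdTomato+GFP+ (-0.86, adjusted p = 8.71e-05). Clusters 0, 6 and 7 had log2 fold changes of -0.73, -1.25 and -0.90 with adjusted p between 0.631 and 0.878, where 1.74%, 3.20% and 0.118% of genes were lower. Leaving out 1 library moved these from -1.09 to -0.50, -3.19 to -0.51 and -4.22 to -0.24, and none passed. The value farthest from 0 came without replicate 1 of tdTomato+GFP+ in cluster 0, replicate 3 in cluster 6 and replicate 2 in cluster 7. The value nearest 0 came without replicate 3, 2 and 3 of that gate.

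Clusters 5, 8 and 11 gave higher fitted levels in tdTomato+GFP+ cells, each resting on 1 replicate, and none passed, where 1.51%, 0.274% and 1.93% of genes were higher. In cluster 5, led by Penk, Klrg1 and Foxp3, 63 of 65 tdTomato+GFP+ UMIs sat in 1 cell, and its replicates were at 0, 6.81 and 258.3 CPM. Cluster 11 was at 0, 3.09 and 438.6 CPM, with 67 of 73 UMIs in 1 cell. Cluster 8 was at 667.4, 23.9 and 105.9 CPM from 8 positive cells. Without the high replicate the log2 fold changes turned to -2.83, -4.69 and -1.01 for clusters 5, 11 and 8, of which the one for cluster 11 passed (adjusted p = 0.000454).

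**Figure D2:**
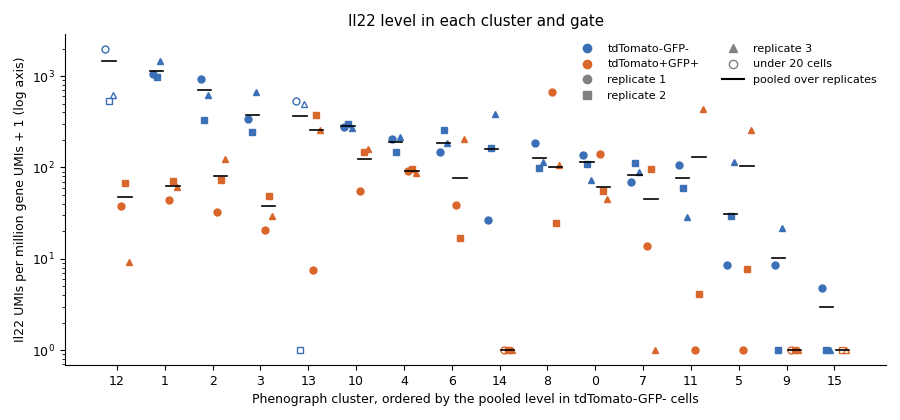
Il22 level (CPM plus 1, log axis) in the 16 clusters, ordered by the pooled level in tdTomato-GFP- cells; symbols are hashed replicates, open where fewer than 20 cells were counted, and bars are levels pooled over replicates. The Th17-like clusters 12, 1, 2, 3 and 13 lie highest in tdTomato-GFP- cells and the tdTomato+GFP+ values of clusters 1, 2 and 3 lie below them.

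The order of clusters by pooled Il22 level differed between the gates. These levels are a description, with no test, since the clusters were made from the same counts. In tdTomato-GFP- cells cluster 12 was highest (1453 CPM, 25 cells), followed by clusters 1 (1128), 2 (711), 3 (370), 13 (360, 8 cells), 10 (280), 4 (190) and 6 (184 CPM). Clusters 14 (157), 8 (125), 0 (114), 7 (81.6), 11 (75.8), 5 (30.3), 9 (9.32) and 15 (1.96 CPM) came after them. Of the 15 neighbouring pairs in this order, 13 had overlapping replicate ranges. The exceptions were cluster 1 above cluster 2 and cluster 10 above cluster 4.

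In tdTomato+GFP+ cells cluster 13 was highest (258 CPM), followed by clusters 11 (129), 10 (124), 5 (103), 8 (101) and 4 (90.7 CPM). Clusters 2 (78.6), 6 (75.8), 1 (61.3), 0 (60.5), 12 (46.3), 7 (44.4) and 3 (36.7 CPM) lay below. All 12 neighbouring pairs with UMIs overlapped in their replicate ranges. Some clusters farther apart in the order did not, with cluster 4 (85.8 to 94.5 CPM) wholly above clusters 1 (43.0 to 70.5) and 3 (19.9 to 47.4 CPM). No Il22 UMI was found in tdTomato+GFP+ cells of clusters 9, 14 and 15. With 53, 61 and 21 cells, a count of 0 allows shares of up to 5.66%, 4.92% and 14.3%, so the absence was not measurable there. Cluster 14, with 142 and 61 cells, had a median of only 1090 UMIs per cell and took no class name, although 6 of its Th17 markers were raised, since none was among its 10 leading genes.

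Much Il22 lay in assigned cells that were left out of the clusters. These 216 cells, 1.14% of assigned cells, held 41.6% of all Il22 UMIs. In tdTomato-GFP- they were 127 cells with 6734 Il22 UMIs and 60 positive cells (33, 21 and 6 by replicate), and in tdTomato+GFP+ 89 cells with 1223 UMIs and 10 positive cells (0, 7 and 3). The level was 9344, 6408 and 3944 CPM against 0, 2391 and 4325 CPM, and the groups overlapped in level. The median positive cell held 86 Il22 UMIs in tdTomato-GFP-, and 121 in the other gate, against 6 and 3.5 among Th17-like positive cells. The highest count in any assigned cell, 422 UMIs, was among them. With clustered cells alone the gate difference over all cells kept its call (log2 fold change -1.43, adjusted p = 0.0259).

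The 60 tdTomato-GFP- cells fell into 32 with both receptor chains, 25 with no beta chain and a few with a beta chain alone. The 32 cells with both chains held 3763 Il22 UMIs, and 31 of them had Cd3e, 25 Cd4 and 18 Il17a. Kit, a receptor tyrosine kinase found on ILC3, was in 2 of the 32. Tnfsf11, the gene for RANKL, was in 19 of them and Fcer1g, an Fc receptor adaptor, in 6. Klrb1b was in 1 and Ncr1, the gene for NKp46, in 0. The 25 cells without a beta chain held 2821 Il22 UMIs, and Cd3e was in 6, Cd4 in 22 and Il17a in 7. These 25 cells carried Kit in 19, Tnfsf11 in 24, Fcer1g in 20, Klrb1b in 13 and Ncr1 in 3. Of the other ILC3 markers looked for, Cxcr5 was in 8, Cd7 in 8 and Tyrobp in 5 (3, 2 and 3 of the 32). Arg1 and Il1rl1 were in 0 of either. Genes of antigen-presenting, myeloid and B lineage cells were read in the same 60 cells. Cd74 was in 31, H2-Aa in 23, Lyz2 in 10 and Jchain in 6, and Cd79a and Igkc in none. In the 25 without a beta chain Cd74 was in 21 (8848 CPM) and H2-Aa in 17. The 67 Il22-negative tdTomato-GFP- cells without a cluster had Fcer1g in 40, Cd74 in 64 and Cd79a in 24. The summed level of the 10 ILC3 and lymphoid tissue inducer markers was 2109, 3819 and 695 CPM in the Il22-positive cells without a cluster, with Arg1 and Il1rl1 at 0, against 428, 482 and 385.5 CPM in tdTomato-GFP- Th17-like cells, with Ncr1 at 0. Over all tdTomato-GFP- cells without a cluster, Il22-negative ones included, the same sum was 1738, 1572 and 508 CPM, with Arg1 at 0. High values were thus not confined to the Il22-positive cells. The part of cells with ILC3 markers in the Il22 level was not tested. With cells of both chains alone, the gate difference over all cells was -1.63 on the log2 scale (adjusted p = 0.0568), and in Th17-like cells -3.85 (adjusted p = 0.0177), a call that the block on replicate number took away (-3.87, adjusted p = 0.103).

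Most of the cells with both chains had clone mates, cells of the same alpha and beta junction and replicate, inside the clusters. This held for 22 of 32 in tdTomato-GFP- and 5 of 8 in tdTomato+GFP+. Among the 153 mates in tdTomato-GFP-, 42 were Il22-positive (27.5%), 67 had an Il17a UMI and 35 were Th17-like. Among the 104 mates in tdTomato+GFP+, 10 were Il22-positive (9.62%), 97 had an Il17a UMI and 84 were Th17-like.

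Il17a, which encodes the Th17 cytokine IL-17A, was detected beside Il22 in most positive cells, more often in tdTomato+GFP+. Of Il22-positive assigned cells 59.6%, 59.7% and 71.6% had an Il17a UMI in tdTomato-GFP- and 83.7%, 86.7% and 87.8% in tdTomato+GFP+ replicates. The gates did not overlap (exact permutation p = 0.1, adjusted 0.126). In Il22-negative cells the same share was 20.8%, 16.7% and 17.01% in tdTomato-GFP-, well below that of the positive cells. In tdTomato+GFP+ it was 89.4%, 81.3% and 74.7%, which overlapped with the positive cells. Read the other way, 20.7%, 21.1% and 28.0% of Il17a-positive cells had an Il22 UMI in tdTomato-GFP-, against 2.31%, 2.42% and 3.59% in tdTomato+GFP+. This difference kept its side after thinning to 2000 UMIs (19.7% ± 3.65 against 2.03% ± 0.53, SD, n = 3).

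Within Th17-like cells nearly every Il22-positive cell had Il17a, 100%, 98.4% and 98.6% in tdTomato-GFP- and 100% in each tdTomato+GFP+ replicate. Il17a is among the genes that define the class, and Il22-negative Th17-like cells had it in 85.2%, 89.2% and 92.5% in tdTomato-GFP- and 98.8%, 97.8% and 97.6% in tdTomato+GFP+ replicates. The Il22-positive share was higher in cells with more Il17a in tdTomato-GFP-. In the 14 positive cells with 1 to 9 Il17a UMIs the shares spread from 8.51% to 37.5%. They were 20.6%, 17.8% and 23.7% at 10 to 49 Il17a UMIs, 27.2%, 28.0% and 32.8% at 50 to 99, and 40.7%, 30.4% and 47.5% at 100 or more. From 10 UMIs on, the share was higher in each successive bin in every replicate. At 0 Il17a UMIs it was 0%, 3.85% and 7.69%, from 2 positive cells in all.

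The tdTomato+GFP+ shares stayed low in every Il17a bin. They were 1.65%, 1.31% and 1.42% at 10 to 49 UMIs and 2.49%, 2.91% and 3.50% at 100 or more. Even cells with 100 or more Il17a UMIs were thus below the tdTomato-GFP- cells with 10 to 49. Median UMIs per cell rose along the same bins, from between 3525 and 3745.5 to between 4792.5 and 4925.5 in tdTomato-GFP-, and the part of depth in the rise was not tested. With Il17a-positive Th17-like cells alone the gate difference in Il22 was -3.62 on the log2 scale (adjusted p = 0.0157).

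**Figure D3:**
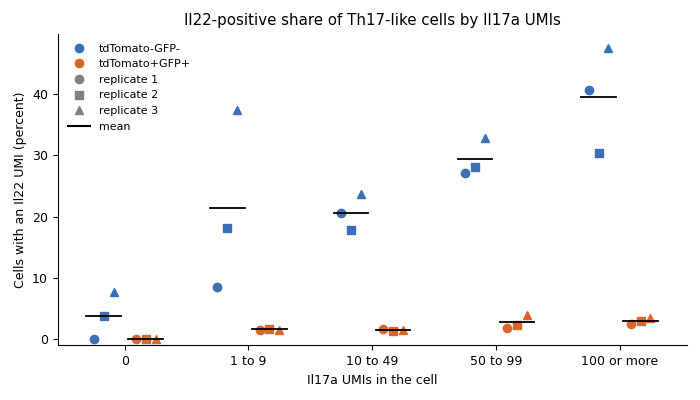
Percent of Th17-like cells with an Il22 UMI (vertical axis) by the number of Il17a UMIs in the cell (horizontal axis); symbols are hashed replicates, colours gates and bars means of 3 replicates. tdTomato-GFP- shares reach between 30.4% and 47.5% at 100 or more Il17a UMIs, while no tdTomato+GFP+ share exceeds 4.02%.

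Il22 UMIs were concentrated in few cells. The 10 richest cells held 24.1%, 42.5% and 45.4% of a replicate's Il22 UMIs in tdTomato-GFP- and 69.0%, 50.9% and 57.0% in tdTomato+GFP+. The gates did not overlap (exact permutation p = 0.1, adjusted 0.126), and total Il22 UMIs per replicate were 2468 to 8124 and 358 to 2236. In tdTomato-GFP- 34, 14 and 12 cells made up 50% of the UMIs, and in tdTomato+GFP+ 6, 10 and 9 cells. As a share of positive cells the order of the gates was the opposite. Those cells were 7.89%, 6.48% and 7.74% of the positive cells in tdTomato-GFP- and 13.95%, 9.52% and 12.2% in tdTomato+GFP+, again without overlap. A fixed 10 cells is a larger part of the 43 to 105 positive cells of tdTomato+GFP+ replicates than of the 155 to 431 in the other gate. Csf2, the gene for the cytokine GM-CSF, was also concentrated, with 53.5%, 39.9% and 58.3% against 70.5%, 65.0% and 76.5% in 10 cells. Il17a was spread wider, with 6.81%, 10.8% and 13.8% against 3.62%, 2.15% and 3.84%, and for it and for Il17f the tdTomato-GFP- replicates were the more concentrated.

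**Figure D4:**
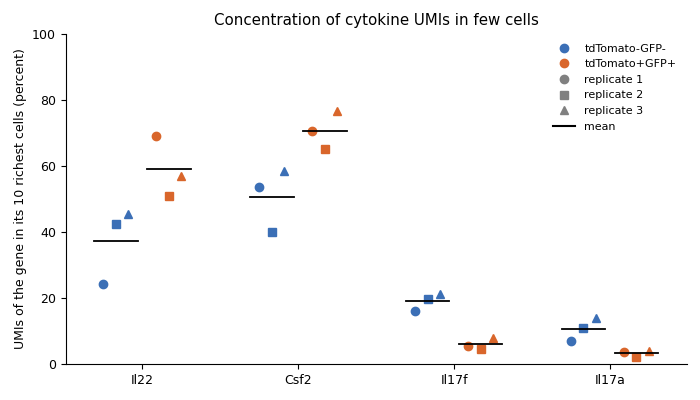
Percent of a gene's UMIs held by its 10 richest cells (vertical axis, from 0) for Il22, Csf2, Il17f and Il17a; symbols are hashed replicates, colours gates and bars means of 3 replicates. The 10 richest cells hold 24.1% to 69.0% of Il22 UMIs and 2.15% to 13.8% of Il17a UMIs.

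Il22 was also uneven between clones. A clonotype is a pair of alpha and beta junction sequences within 1 hashed replicate. The clonotype richest in Il22 held 6.55%, 9.82% and 11.7% of the Il22 UMIs of cells with both chains in tdTomato-GFP-. In tdTomato+GFP+ the richest held 19.7%, 15.9% and 26.3%, without overlap (exact permutation p = 0.1, adjusted 0.126). Clonotypes with an Il22 UMI numbered 187, 107 and 75 against 31, 53 and 41. A single clonotype was thus a larger part of them in tdTomato+GFP+. Beta junctions of 4 of the clonotypes richest in Il22 are shown, chosen after their values were seen, 2 from each gate. Their capitals mark the bases between the first 12 and last 12.
tdTomato-GFP- replicate 1, TRBV2 and TRBJ2-5: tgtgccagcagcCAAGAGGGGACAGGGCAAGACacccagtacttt
tdTomato-GFP- replicate 1, TRBV13-3 and TRBJ2-1: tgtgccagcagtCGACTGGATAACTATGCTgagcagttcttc
tdTomato+GFP+ replicate 3, TRBJ1-4: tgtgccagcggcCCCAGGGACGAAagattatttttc
tdTomato+GFP+ replicate 2, TRBV2 and TRBJ1-2: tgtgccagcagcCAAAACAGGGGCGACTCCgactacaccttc
The first clonotype had 2 cells with 370 Il22 UMIs, 351 of them in a cell without a cluster. The second had 10 cells over clusters 0, 2, 4 and 6 and 1 cell without a cluster, of which 5 were Il22-positive with 297 UMIs, 206 of them in 1 cell. In the third 7 of 10 cells were positive, with 250 UMIs, 130 of them in 1 cell, and 8 had Il17a. The fourth had 4 positive cells of 12, with 237 UMIs, 197 of them in 1 cell.

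Expanded clonotypes, those of 10 or more cells, held Il22 in 44 of 74 cases in tdTomato-GFP- and 38 of 115 in tdTomato+GFP+. The median share of Il22-positive cells in them was 8.33% and 0%. Single clonotypes reached 55.0% in tdTomato-GFP-, with 11 of 20 cells, and 70.0% in tdTomato+GFP+, the third clonotype above. In tdTomato-GFP- the positive share was 4.99%, 5.14% and 5.22% in cells of clonotypes seen once and 12.7%, 11.0% and 17.4% in expanded ones, higher in each replicate. In tdTomato+GFP+ it was 4.63%, 2.80% and 4.41% in cells seen once and 1.64%, 2.35% and 2.04% in expanded ones, lower in each replicate. Among Th17-like tdTomato-GFP- cells the shares overlapped, with 25.0%, 21.2% and 25.0% for clonotypes seen once and 21.5%, 23.7% and 26.8% for expanded ones. Among Th17-like tdTomato+GFP+ cells they were 5.41%, 1.72% and 4.90% for clonotypes seen once, from 12 positive cells in all, and 1.29%, 1.95% and 0.952% for expanded ones, and replicate 2 went the other way.

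Clonotypes found in both gates of the same replicate number, 18, 23 and 33 of them, had fewer Il22-positive cells in tdTomato+GFP+. The shares were 6.79%, 8.62% and 9.09% in their tdTomato-GFP- cells and 2.96%, 1.92% and 2.75% in their tdTomato+GFP+ cells. These shares did not overlap, with 24 and 13 positive cells in all behind them. The Il22 level of the same cells did overlap, though it was lower in tdTomato+GFP+ in each replicate number. It was at 170.5, 55.6 and 151.8 CPM in tdTomato-GFP- against 82.4, 49.6 and 34.6 CPM. No test was run on these shares or levels.

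Genes measured beside Il22 were compared between Il22-positive and Il22-negative Th17-like cells within each gate, with replicate as a block and Il22 left out. In tdTomato-GFP- 19 genes were higher in positive cells (0.274% of 6929 tested) and 27 lower (0.390%). Without replicate 1 only 9 genes passed. Positive cells were deeper, with medians of 4415, 4104 and 4106 against 3828, 3848 and 3936 UMIs. Against negative cells matched on replicate, cluster and depth, 11 genes passed, 8 of them from the first comparison.

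Ccr6, the receptor for the chemokine CCL20, rose most among the named genes of tdTomato-GFP- cells. It was at 105.0, 92.3 and 68.8 CPM in positive and 52.4, 32.0 and 30.5 CPM in negative cells, without overlap (log2 fold change 1.16, SE 0.19, adjusted p = 0.000334). Matched negative cells gave the same size (1.16, adjusted p = 0.00833). Also higher were Ccr4, a chemokine receptor, Nav2, Il1r2, the decoy receptor for IL-1, Il17f, Ero1l, Il17re, the receptor chain for IL-17C, Rrad and Hist1h1e, with log2 fold changes from 0.63 to 0.92. None of these 8 passed against matched cells, of which there were fewer than of all negative cells. Their log2 fold changes there ran from 0.21 for Il1r2 to 0.75 for Il17re (edgeR adjusted p = 0.925 and 0.0702). Il17f was at 2148, 2003 and 2654 against 1240, 1523 and 1420 CPM, and Il17a at 15708, 14735 and 15080 against 11225, 11909 and 12248 CPM (log2 fold changes 0.70 and 0.37). Against matched negative cells Il17a did not pass (0.07, adjusted p = 0.918).

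Lgals3, the gene for galectin-3, fell in these cells, with 80.9, 116.2 and 72.0 against 192.3, 165.4 and 185.9 CPM (log2 fold change -1.07, matched -1.11). Snx9, a sorting nexin, fell from 46.8, 50.6 and 36.3 to 18.4, 13.7 and 12.5 CPM (-1.49, matched -1.999). Both passed against matched cells, as did Nrgn (-1.30, matched -1.22). Il12rb2, the IL-12 receptor chain of Th1 cells, Izumo1r, Cdc42ep3 and Nkg7 fell, with log2 fold changes of -1.20, -1.29, -1.001 and -0.82, and did not pass or were not tested against matched cells. Foxp3 was lower in positive cells (-1.66, SE 0.38, adjusted p = 0.0369) in 2 of 3 replicates, at 12.8, 10.3 and 25.0 against 70.5, 37.2 and 17.4 CPM. The receptor segments Trav16, Trbv19 and Trbv3 fell and Trbv15 rose, which counts the receptors of the clones on either side.

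In tdTomato+GFP+ Th17-like cells 36 genes were higher in Il22-positive cells (0.379% of 9499 tested) and 24 lower (0.253%), from 118 positive cells. The counts fell to 24 genes without replicate 2 and to 28 without replicate 3, and 14 passed against matched negative cells. Il23r, the IL-23 receptor chain, was at 100.1, 66.3 and 71.5 CPM in positive and 33.7, 30.6 and 28.2 CPM in negative cells, without overlap (log2 fold change 1.29, SE 0.29, adjusted p = 0.00212). Ccr6 was at 190.2, 107.8 and 38.5 against 53.9, 40.2 and 30.1 CPM, with overlap (1.33, adjusted p = 9.25e-05). Neither passed against matched negative cells (Il23r 1.37, adjusted p = 0.253; Ccr6 1.18, adjusted p = 0.103). Ern1, the sensor kinase IRE1 of the unfolded protein response, rose from 47.5, 45.2 and 40.0 to 80.1, 129.9 and 104.5 CPM (1.33). It also passed against matched cells (matched 1.48), which were at 79.9, 41.6 and 16.3 CPM. In replicate 1 positive and matched cells were thus level.

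Ccr7, St3gal6, Ermn, Kit, Gm28592, Ifng and Il17re also rose, with log2 fold changes from 1.18 to 1.99. Against matched cells Ccr7 and Ifng did not pass (1.11 and 0.12, edgeR adjusted p = 0.993 for both), and the other 5 were not tested. The 24 positive cells of replicate 1 held 100073 UMIs of all genes, so low levels there rest on few UMIs. Ermn was at 10.0, Kit and St3gal6 at 20.0 and Il17re at 30.0 CPM in them. Negative cells of that replicate were at 5.88, 7.71, 6.08 and 28.6 CPM in the same order, so Il17re was about level. With positive cells of at least 2 Il22 UMIs the Ccr7 difference turned to -0.83. The Ccr7 difference was largest in replicate 1, at 500.5 against 50.5 CPM, beside 80.2 and 66.0 against 36.4 and 30.5 CPM in the others. Ifng, the gene for interferon gamma, was at 170.2, 373.1 and 225.5 against 92.9, 115.5 and 148.1 CPM but at 89.9, 274.7 and 354.2 CPM in matched negative cells. Among the falls, Plac8 passed against matched cells (-1.42, matched -1.60). Il13, a Th2 cytokine, and Penk, the gene for proenkephalin, had 0 UMIs in the positive cells of 2 replicates. Syp, Il12rb2, Znhit1 and Csf1 fell, with log2 fold changes of -1.36, -1.30, -1.07 and -0.95, and the segments Trav12-2, Trbv29 and Trbv1 also fell.

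The 2 gates shared 6 rises, Ccr6, Il17f, Il17re, Il1r2, Lmnb1 and Rgcc, which are 31.6% of those of tdTomato-GFP- and 16.7% of those of tdTomato+GFP+. Falls in common were 2, Il12rb2 and Lgals3, which are 7.41% and 8.33%. In replicate 1 of tdTomato+GFP+ both were about level, at 30.0 against 30.6 and 160.1 against 165.1 CPM. Il23r was no rise in tdTomato-GFP- cells, where it was at 89.4, 68.4 and 84.5 against 72.0, 66.2 and 66.8 CPM. The difference between the gates in these responses was not tested. Of the listed genes around IL-22, described next, 3 of 38 tested rose in tdTomato-GFP- positive cells (Irf4, Il17a and Il17f) and 1 fell (Foxp3), and 5 of 43 rose in tdTomato+GFP+ (Il23r, Il17f, Csf2, Ifng and Tnf) and 1 fell (Ccl20). Over all genes tested 0.274% rose and 0.390% fell in tdTomato-GFP-, and 0.379% rose and 0.253% fell in tdTomato+GFP+. Against matched negative cells 1 of 33 passed in tdTomato-GFP- (Il21) and 1 of 29 in tdTomato+GFP+ (Il17f), both as rises. Of all genes tested against matched cells 0.108% and 0.292% rose. Csf2 in tdTomato+GFP+ was at 0, 33.2 and 115.5 CPM in positive and 7.71, 8.01 and 7.39 CPM in negative cells, so replicate 1 went the other way. Most of these genes therefore did not differ past the threshold between Il22-positive and Il22-negative cells of a gate. The share of them that rose was still above that of all genes, with 1 gene behind it in each matched comparison. That excess was not tested.

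**Figure D5:**
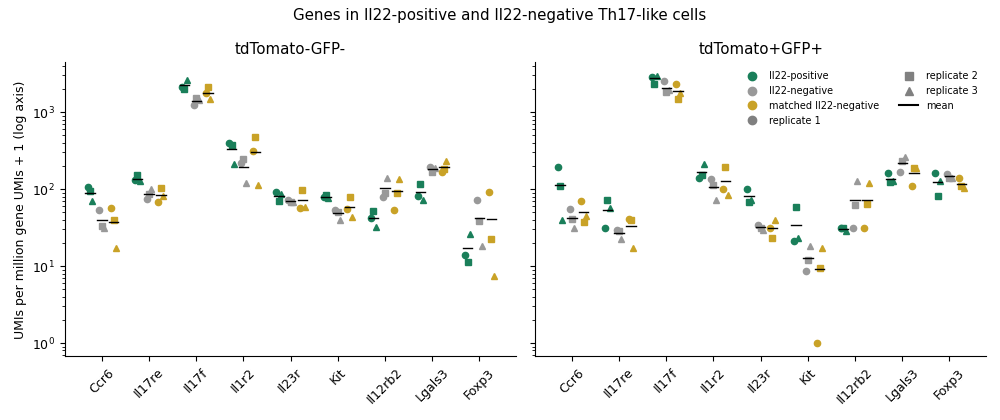
Levels of 9 genes (CPM plus 1, log axis) in Il22-positive, Il22-negative and matched Il22-negative Th17-like cells of each gate; symbols are hashed replicates and bars means of 3 replicates. Ccr6 in tdTomato-GFP- positive cells (68.8 to 105.0) lies above negative cells (30.5 to 52.4), and Il23r in tdTomato+GFP+ positive cells (66.3 to 100.1) above negative cells (28.2 to 33.7).

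The genes known to act before and beside Il22 were read in the same gate comparison of Th17-like cells. Of 57 listed genes 50 were in the table and 43 were tested. Of these 43, 9 were higher in tdTomato+GFP+ (4.75% of all genes were) and 12 lower (6.45% of all genes were). The median log2 fold change of the 43 was -0.10, against 0.01 over all 10075 genes. Among 11 receptors and signal genes, Il23r and Il1r1, the IL-1 receptor, fell, and Il6ra and Jak2 were among those that rose. Il6ra was near the floor, at 1.49, 2.38 and 3.96 CPM in tdTomato-GFP- replicates against 7.35, 5.69 and 6.19 CPM. Over all assigned cells Il6ra was instead called lower in tdTomato+GFP+. Il23r was at 76.5, 66.6 and 72.3 CPM in tdTomato-GFP- replicates, against 35.0, 31.6 and 29.7 CPM (-1.22, SE 0.11, adjusted p = 2.46e-06), and Il1r1 at 98.0, 96.0 and 81.3 against 36.8, 38.3 and 32.5 CPM (-1.40, adjusted p = 5.96e-07). Neither overlapped. Stat3, the main signal transducer of IL-23, was at 266, 294 and 264 against 263, 274 and 252 CPM and did not pass.

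Of 19 transcription factors 7 were lower in tdTomato+GFP+ Th17-like cells and 3 higher, where 6.45% and 4.75% of all genes were. Batf, an AP-1 factor of Th17 cells, and Tbx21, the factor of Th1 cells, were among the lower ones, with log2 fold changes of -0.49 and -1.16, beside Rora, Runx3, Hif1a and Rbpj. Foxp3, on which the sort rests, Ikzf3 and Id2 were higher. Ahr, the aryl hydrocarbon receptor, was at 249, 345 and 308 against 339, 372 and 420 CPM and did not pass (0.30, adjusted p = 0.192), but passed when the replicate number was a block (adjusted p = 9.44e-05), as did Runx1 and Il21r, which fell (-0.20 and -0.23). Its target genes Ahrr and Tiparp did not pass.

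Of 9 companion cytokines tested, 3 were lower, as Il22 was, and 2 higher, where 6.45% and 4.75% of all genes were. Csf2 was at 96.5, 60.3 and 87.2 against 7.55, 8.74 and 11.1 CPM (log2 fold change -3.23, adjusted p = 5.24e-07) and Ifng at 832, 996 and 911 against 94.4, 122.98 and 150.7 CPM (-2.93, adjusted p = 0.00106). Tnf was lower too (-1.24, adjusted p = 0.00266; 0.124 when replicate number was a block). Il17a was higher in tdTomato+GFP+ cells, at 17476, 16120 and 15809 against 12389, 12559 and 13134 CPM (0.34, adjusted p = 4.71e-05), as was Ccl20 (2.12, adjusted p = 0.0379; 0.0956 with the block). Summed over the class, Il22 thus differed in the opposite direction to Il17a. Within clusters 1 and 12 pooled Il17a was about level, at 23394 and 50865 CPM in tdTomato-GFP- against 23151 and 49908 CPM. In clusters 2, 3 and 13 it was higher in tdTomato+GFP+, at 9767, 7667 and 11641 against 9146, 5965 and 5046 CPM. The part of the mix of clusters in the Il17a difference was not tested. Il10ra, a chain of the IL-10 receptor, was higher (0.80), while Il22ra2, the soluble IL-22 antagonist, had no UMI in 5 of 6 replicates.

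Over all assigned cells 12 of 44 tested genes of these lists were higher in tdTomato+GFP+ and 9 lower, where 26.4% of all genes changed in either direction. Il23r did not pass there (0.26, adjusted p = 0.538), other than with the block on replicate number (0.31, adjusted p = 0.0282).

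The genes whose levels ran most like Il22 were Bcl2a1a, Smox, Pde5a, Atg7, Il23r, Il17re, Kcnmb4, Il1r1, Plcb4 and Cdkn1a. Their Pearson correlations of log2(CPM + 10) with Il22 were 0.71 to 0.80 over 27 points, each a gate and cluster with at least 100 cells, among 8505 genes. For Il17a the correlation was 0.54. The least like were Gm11707, Ifit1, Xaf1, Sgk1, Mov10, Tgtp2, Arfip1, Ifit3, Usp16 and Ldhb (-0.72 to -0.59). The points share lanes and replicates and differ in depth, so these values are a description only.

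Of tdTomato-GFP- cells with a Foxp3 UMI 2.40%, 2.36% and 4.30% were Il22-positive, against 10.0%, 8.31% and 9.41% of cells without one, and no test was run. Among Th17-like cells of that gate the shares were 8.51%, 10.0% and 50% against 23.3%, 22.3% and 29.5%, with 47, 20 and 12 cells that had a Foxp3 UMI, and replicate 3 went the other way. In tdTomato+GFP+, where the sort rests on the Foxp3 reporter, the shares were 2.27%, 2.22% and 3.32% against 2.58%, 2.31% and 2.96%, and overlapped.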

How the data were processed

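Droplet single-cell libraries with receptor and hashtag libraries were analysed. The authors deposited UMI counts per cell and gene, with each cell's gate, hashed replicate and cluster, and a receptor table. The authors' hashtag fraction (the main hashtag's share of hashtag counts) was not used in tests. Cell Ranger, Scanpy 1.7.2, mm10 and GRCm38 are named, per the submitters' processing notes. The labels' protocols name 3′ v3 or 5′ v2 chemistry, and the authors' cell filters are not given in the sources used here. No doublet caller was run, and whether doublets were removed before deposit is not given either.

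Hashtag features (43.8% of UMIs) and 4721 of 23595 cells that had no hashed replicate did not enter. Counts were summed per replicate and tested with edgeR 4.0.16 (quasi-likelihood test, TMM, filterByExpr at 10 counts) under R 4.3.3. P-values are two-sided and Benjamini-Hochberg adjusted over every gene tested, at a threshold of 0.05. Fold changes are tdTomato+GFP+ over tdTomato-GFP-. DESeq2 1.42.0 was an alternative. Scripts were tested on simulated data. Shares were compared with exact permutation tests, and cells were thinned to 2000 or 1000 UMIs.

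Replicates with the same number were more alike across the gates than those with different numbers. Their deviations from the gate means correlated by 0.29, 0.19 and 0.22, against -0.25 to 0.05 for different numbers, and they shared 18, 23 and 33 clonotypes, against 3 at most between different numbers across the gates. Different numbers within a gate shared 1 to 20. The labels do not say that a number marks 1 animal, so the main gate fits and the permutation tests took the gates as unpaired. The block on replicate number pairs them. The Il22 calls over all cells, in Th17-like cells and in cluster 3 rest on that choice.

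Named genes are those of 5 lists around IL-22, of which some members are counted but not reported singly here, and, for Il22-positive against negative cells, the 10 largest rises and falls among genes past the threshold, of the same sign in 3 replicates and with at least 20 CPM on a side. Most and least like genes are the 10 with the highest and lowest correlation. The 5 clonotypes with most Il22 UMIs per gate were examined. Members and lists were chosen with earlier results of these data known.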

Additional observations from a re-analysis of the deposited data

Results flagged for a closer look

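Il22 was also found in cells that none of the comparisons used, those without a hashed replicate, which can hold more than 1 cell and in which no cluster is given. In tdTomato-GFP- 295 of 2217 such cells were Il22-positive (13.3%), with 4851 UMIs or 287.2 CPM. In tdTomato+GFP+ it was 172 of 2504 cells (6.87%), with 2639 UMIs or 114.8 CPM. A count of 0 would allow 0.178 and 0.1305 CPM. Median UMIs per cell were 7103 and 7675.5, above those of assigned cells. The levels lie on the same sides as in assigned cells, and were not tested because these cells belong to no replicate.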

How the results depend on the processing

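For 85 results 798 alternatives were computed. Of these 530 kept direction and side of the threshold, 248 lost the call, 2 gained it, 5 turned and 13 counts of genes moved by over 1.5 times. Of the 54 named genes, 225 of the alternatives lost the call and 1 turned, Ccr7 in tdTomato+GFP+ cells with at least 2 Il22 UMIs (log2 fold change -0.83). The cause was not tested.

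Over all cells the log2 gate difference missed the threshold without a filter on low counts (-1.79), with the replicate block (-1.91), 1 cell per clonotype (-1.22), without the 10 richest cells (-2.34), with equal cells per cluster (-2.19) and with both receptor chains only (-1.63). In Th17-like cells it missed with the replicate block (-3.53) and with the block and both chains only together (-3.87), and in cluster 3 with the block (-3.54). The block changed no other gate call of Il22. Leaving out 1 library gave -2.07 to -1.49 over all cells, -3.76 to -3.26 in Th17-like cells, -0.85 to -0.23 in other clusters, -4.09 to -3.15 in cluster 3, -1.09 to -0.50 in cluster 0, -3.19 to -0.51 in cluster 6, -4.22 to -0.24 in cluster 7, -1.40 to -0.86 in cluster 10, -2.83 to 2.24 in cluster 5, -1.01 to 1.05 in cluster 8 and -4.69 to 1.85 in cluster 11. Il22 was not tested in cluster 5 without tdTomato-GFP- replicate 3 or in cluster 11 without replicate 1. Restriction to both chains, to clustered and to Il17a-positive cells was chosen after seeing the data.

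Il17a in Il22-positive Th17-like cells turned from 1.01 to -0.62 percentage points between the gates after thinning. The 46 genes of Il22-positive tdTomato-GFP- cells became 11 with matched negative cells, 3 with DESeq2, 88 without a filter, 12 with no replicate block, 29 at 2 or more Il22 UMIs, 9 with 1 cell per clonotype and 9 to 57 with a replicate left out. The 60 of tdTomato+GFP+ became 14 with matched cells, 10 with DESeq2, 8 with no replicate block, 5 with 1 cell per clonotype and 24 to 80 with a replicate left out.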

Other observations

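Il22-positive cells outside the Th17-like clusters carried Th17-related genes and Tnfsf11 more often than the clustered cells without Il22. Among the 476 such tdTomato-GFP- cells Ccr6 was detected in 38.9%, Il23r in 29.2%, Il1r1 in 27.1% and Tnfsf11 in 52.9%. Among 9240 clustered Il22-negative tdTomato-GFP- cells, Th17-like ones included, these shares were 9.73%, 6.58%, 8.25% and 34.0%. Il17a was in 43.3% against 18.9%, and Foxp3 in 9.03% against 23.0%. Median UMIs per cell were 5202.5 and 3792, cells were not matched on depth, and no test was run.

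Within tdTomato-GFP- Th17-like cells Kit was detected in 24.1%, 23.8% and 22.9% of Il22-positive cells, in 12.8%, 19.0% and 14.3% of matched negative cells, and in 11.8%, 12.1% and 11.3% of all negative cells. Il21, a cytokine of Th17 and follicular helper cells, was at 177.4, 242.7 and 97.0 CPM in positive and 84.3, 89.2 and 71.2 CPM in matched negative cells (edgeR log2 fold change 1.06, adjusted p = 0.000608), and did not pass against all negative cells (0.74, adjusted p = 0.805).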
